A study of Mus musculus with 24 samples.

Results

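Molecular chaperones keep other proteins folded, and the heat shock genes among them are the ones whose transcription climbs when unfolded protein accumulates in a cell. The 10 genes described here are Hsph1, Hspa1a, Hspa1b, Hspa8, Hspb1, Hsp90aa1, Hspd1, Hspe1, Dnajb1 and Bag3, followed across 12 groups of mouse lung on single-colour Agilent arrays. They were chosen by their relative log2 signal over these same 12 groups, seen in an earlier reading of the arrays, and were found by gene name, so that every level and difference of these genes is a description. Where the fit over all genes called some of them, the count is given as a description too, beside the share called among all genes, and nothing is read from it. Some counts with an array left out, with another scaling or with another setting of the fit have no such share beside them, and cannot be set against all genes. By name the rule found 8 genes on 16 probes; Hsph1 stands on the array under its older name Hsp110 and was added through its RefSeq accession. No probe bears the name or accession of Hspa1b, which leaves 9 of the 10 genes, read by 17 probes, among 20409 genes tested. The set was labelled cytosolic, which holds for most of them, whereas Hspd1 and Hspe1 are known as chaperonin subunits of the mitochondrial matrix; the 10 genes are therefore called heat shock chaperones.

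In the heat shock response, the transcription factor Hsf1 is held inactive by chaperones in resting cells, is released when unfolded protein occupies them, and then binds repeats of a short element in the promoters of chaperone genes. Hsp70 proteins (Hspa1a, Hspa1b, Hspa8) bind exposed hydrophobic stretches of clients, J-proteins such as Dnajb1 stimulate their ATPase, Hsph1 and Bag3 exchange their nucleotide, Hsp90aa1 completes the folding of kinases and receptors, and Hspb1 is an ATP-independent holdase. Many protein kinases are clients of Hsp90. In lung, these genes are active in epithelium, endothelium and macrophages alike, so that none of them marks a cell type.

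The tissue was collected 24 days after irradiation. Without irradiation there were 6 groups: untreated lung and lung of mice given 1 of the single drugs Su, Imatinib or Ly or 1 of the combinations Ly+Su and Ly+Imatinib. The other 6 groups were the same arms after irradiation, named Irradiation for the arm without drug and, with each drug, Irradiation+Su and so on. Every group had 2 biological replicates. As its title has it, the series asked what blocking TGF-beta together with PDGF signals does in lung that turns fibrotic after radiation. Imatinib inhibits the ABL, KIT and PDGF receptor kinases; Ly and Su are used by their short label names, and no strain, sex, age, radiation dose or drug dose was given in the labels. RNA came from pieces of whole lung, so a lower level can mean fewer cells of a type or less RNA per cell, and these cannot be told apart. The surfactant gene Sftpc, the club cell gene Scgb1a1, the type I cell gene Ager, Sftpb and the endothelial gene Cdh5 were well above background on all 24 arrays.

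Values are log2 intensities minus the log2 of the array's own 75th percentile, and levels of different genes cannot be set against each other because each probe binds differently. Each group lay on 1 of 6 slides. Untreated and Ly shared a slide, as did Imatinib and Su, both combinations, Irradiation and Irradiation+Ly, Irradiation+Imatinib and Irradiation+Su, and both irradiated combinations. For every comparison across slides, including all between irradiated and unirradiated lung, the slide cannot be told apart from the group. The first Irradiation array stood apart, with a 75th percentile signal of 2263 against 629 to 1600.2 on the other 23 arrays, and the counts against Irradiation are given with and without it. The first Irradiation+Ly+Imatinib array had 330 outlier spots against at most 80 elsewhere.

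The promoters of heat shock genes carry the element that Hsf1 binds, and they are shown for that reason. In 300 bases around each annotated start (250 before it and 50 from it, RefSeq, GRCm38.p6), the 2-unit heat shock element was searched as GAANNTTC and as TTCNNGAA; each reads the same on both strands, and both overlap where they form the 3-unit GAANNTTCNNGAA. Of 32851 such windows, 15.1% held either 2-unit motif and 0.603% held the 3-unit motif. Windows were listed for 8 of the 10 genes, 11 windows in all, and 8 of these windows, from 7 genes, held a 2-unit match. Both windows of Dnajb1 had no such run of letters, and the match of Bag3 lay after the start, at +43 to +50. The 3-unit motif was found in 4 of the 11 windows: both of Hsph1, after the start (+37 to +49 and +16 to +28), 1 of Hspd1 and that of Hspe1. The last 2 are the same site, since Hspd1 and Hspe1 are divergently transcribed neighbours whose windows share 285 bases. The sequences below are those of the genes with the widest range across the groups, of Hspa1b for its likeness to Hspa1a, and of the shared Hspd1 and Hspe1 site; capitals mark heat shock motif matches, and all run 5′ to 3′ on the gene's strand. The Hspa1a stretch is chr17:34972157-34972306 (minus strand), that of Hspa1b chr17:34959239-34959388 (minus) and that of Hspb1 chr5:135887769-135887918 (plus), each the 150 bases before the start. The Hsph1 site is chr5:149636351-149636380 (minus) and the Hspe1 site chr1:55088053-55088082 (plus), 30 bases each. That of Hsph1 holds a 2-unit match before the start (-33 to -26 in 1 window, -54 to -47 in the other) and not the 3-unit motif.
Hspa1a: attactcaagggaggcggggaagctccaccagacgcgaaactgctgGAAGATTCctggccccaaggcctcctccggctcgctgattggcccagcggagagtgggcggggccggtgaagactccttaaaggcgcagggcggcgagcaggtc
Hspa1b: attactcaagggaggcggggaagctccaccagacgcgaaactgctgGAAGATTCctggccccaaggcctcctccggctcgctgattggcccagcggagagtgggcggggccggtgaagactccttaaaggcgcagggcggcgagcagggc
Hspb1: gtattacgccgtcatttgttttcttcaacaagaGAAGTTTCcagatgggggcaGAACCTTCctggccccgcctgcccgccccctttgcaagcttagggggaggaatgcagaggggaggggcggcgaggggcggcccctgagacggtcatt
Hsph1: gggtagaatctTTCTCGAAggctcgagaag
Hspe1: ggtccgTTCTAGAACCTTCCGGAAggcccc
The stretches of Hspa1a and Hspa1b differ at 1 base and their whole windows at 4. Their transcripts are near-identical too, so the probes named Hspa1a may also bind Hspa1b RNA and the value of Hspa1a is uncertain as that of 1 gene. Hspb1 carried its matches at -117 to -110 and -97 to -90, Hspa1a at -104 to -97. Also within these windows, CCAAT was present in both Hsp70 promoters at -67 to -63, as in 37.4% of all windows.

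Hsph1, the Hsp110 chaperone that acts as a nucleotide exchange factor for Hsp70, spanned the widest range. It read 3.71 and 4.48 in untreated lung and 4.38 and 4.43 with Ly. In the other unirradiated groups it read 3.57 and 3.80 for Imatinib, 3.25 and 3.21 for Su, 2.88 and 3.17 for Ly+Imatinib and 3.06 and 2.88 for Ly+Su. Both combination groups and Su lay below both untreated arrays, whereas 1 Imatinib array lay within the untreated range. After irradiation Hsph1 read 3.66 and 4.06 without drug, 3.89 and 3.75 with Ly, 3.15 and 3.25 with Imatinib, 2.30 and 2.09 with Su, 2.71 and 2.69 with Ly+Imatinib and 2.72 and 2.63 with Ly+Su. The Irradiation+Su arrays were the lowest of all 24, and no array of the 4 irradiated groups with Imatinib or Su overlapped Irradiation. From the highest group mean, Ly, to the lowest, Irradiation+Su, Hsph1 differed 4.62-fold.

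Hspa1a, the stress-inducible Hsp70, followed a like order with more spread. Its values were 1.81 and 2.83 in untreated lung, 2.41 and 2.42 with Ly, 1.44 and 1.35 with Imatinib, 0.87 and 0.85 with Su, 1.09 and 1.56 with Ly+Imatinib and 1.07 and 1.27 with Ly+Su. The second untreated array lay well above the first, and every array with Imatinib or Su lay below both. In irradiated lung the values were 2.03 and 2.46 without drug, 2.16 and 2.34 with Ly, 1.43 and 1.34 with Imatinib, 0.69 and 0.75 with Su, 1.26 and 0.74 with Ly+Imatinib and 1.28 and 0.98 with Ly+Su. Again the 8 arrays with Imatinib or Su lay below all 4 without either. The range over group means was 3.24-fold, from Ly to Irradiation+Su. Of the 4 probes named Hspa1a, each gave a lower signal with Su than in untreated lung, by -1.46, -1.79, -1.96 and -2.39, and in Irradiation+Su than in Irradiation, by -1.53, -1.51, -1.31 and -0.75. The last of each series is a dim probe above background on 21 of the 24 arrays.

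Hspa8, the constitutive Hsp70 of every cell, moved least among the Hsp70 genes on its brighter probe. It read 4.50 and 6.14 in untreated lung and 4.81 and 5.90 in Irradiation, gaps between replicates wider than most gaps between groups. The other 10 groups lay between 4.83 and 5.98, and all 11 gaps between neighbouring group means were within the pooled replicate SD of 0.41. A second Hspa8 probe gave another picture: 4.56 and 5.02 in untreated lung, 3.69 and 3.51 with Su, 3.66 and 3.71 with Ly+Su, 4.11 and 4.60 in Irradiation and 3.41 and 3.87 in Irradiation+Su. On that probe Su differed from untreated lung by -1.19 and Irradiation+Su from Irradiation by -0.71, where the brighter probe gave 0.00 and -0.33. The files do not say which transcript regions the probes read, so the Hspa8 result depends on the probe chosen.

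**Figure D1:**
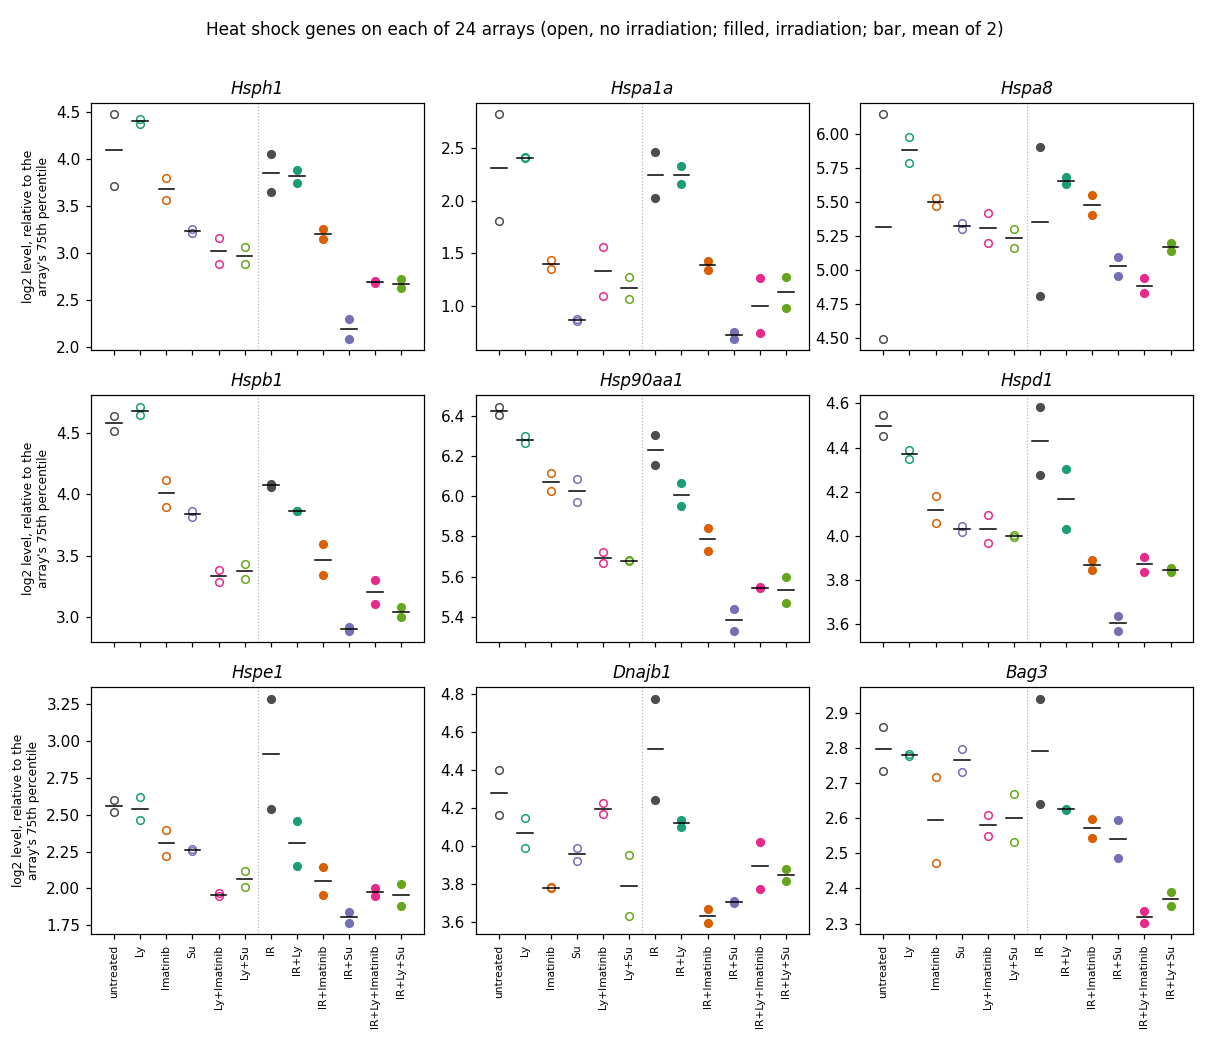
Relative log2 signal (y axis) of each of the 9 measured genes on all 24 arrays, with 1 panel per gene and the 12 groups on the x axis (IR, Irradiation); points are arrays and bars are group means. Hsph1, Hspa1a and Hspb1 step down in the groups given Imatinib or Su, and Hspa8 and Bag3 show little order beyond the distance between replicates.

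Hspb1, the small heat shock protein that holds unfolded clients and binds actin, was the most reproducible of the widely varying genes. It read 4.51 and 4.64 in untreated lung and 4.71 and 4.64 with Ly. Imatinib gave 4.12 and 3.90, Su 3.82 and 3.86, Ly+Imatinib 3.29 and 3.39 and Ly+Su 3.43 and 3.32. In unirradiated lung each combination lay below Imatinib or Su given without Ly, with no overlap. After irradiation it read 4.06 and 4.09 without drug, 3.87 and 3.87 with Ly, 3.34 and 3.60 with Imatinib, 2.92 and 2.89 with Su, 3.31 and 3.11 with Ly+Imatinib and 3.09 and 3.01 with Ly+Su. Irradiated lung without Imatinib or Su already lay below untreated lung, and Irradiation+Su was lowest. The other Hspb1 probe was well above background on no array. The range was 3.41-fold with a pooled SD of 0.09, and 3 of the 11 gaps between neighbouring group means were within that SD.

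Hsp90aa1, the inducible cytosolic Hsp90, varied less but with close replicates. It read 6.45 and 6.41 in untreated lung, 6.26 and 6.30 with Ly, 6.03 and 6.11 with Imatinib, 6.08 and 5.97 with Su, 5.67 and 5.72 with Ly+Imatinib and 5.68 and 5.68 with Ly+Su. Irradiated groups read 6.31 and 6.16 without drug, 6.07 and 5.95 with Ly, 5.73 and 5.84 with Imatinib, 5.44 and 5.33 with Su, 5.55 and 5.54 with Ly+Imatinib and 5.60 and 5.47 with Ly+Su. In both sets the untreated or drug-free group was highest, and a combination or Su was lowest, over a 2.05-fold range with a pooled SD of 0.07. Over all 24 arrays Hsp90aa1 tracked Hspb1 most closely of all pairs of the 9 genes (Pearson r = 0.96), a description across arrays that share groups and slides.

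Dnajb1, the J-protein that hands clients to Hsp70, followed another order on its brighter probe. Its values were 4.16 and 4.40 in untreated lung, 4.15 and 3.99 with Ly, 3.78 and 3.78 with Imatinib, 3.99 and 3.92 with Su, 4.23 and 4.17 with Ly+Imatinib and 3.63 and 3.95 with Ly+Su. Ly+Imatinib, low for Hsph1 and Hspb1, thus overlapped untreated lung. In Irradiation the values were 4.78 and 4.24, the first being the highest of all 24 arrays. The other irradiated groups read 4.10 and 4.14 with Ly, 3.59 and 3.66 with Imatinib, 3.70 and 3.71 with Su, 4.02 and 3.77 with Ly+Imatinib and 3.88 and 3.82 with Ly+Su, all below both Irradiation arrays. Its lowest group was Irradiation+Imatinib, 1.84-fold below Irradiation. A second, dimmer Dnajb1 probe, also above background on all 24 arrays, read 0.68 and 1.14 in untreated lung, 0.15 and 0.15 with Su, 0.59 and 0.71 with Ly+Imatinib, 0.34 and 1.04 in Irradiation, 0.36 and 0.44 in Irradiation+Imatinib and 0.25 and 0.48 in Irradiation+Su. On that probe Su was the lowest group and the first Irradiation array was among the low ones, Su differed from untreated lung by -0.76 where the brighter probe gave -0.33, and Irradiation+Su from Irradiation by -0.33 where it gave -0.81, so the order for Dnajb1 depends on the probe. On the brighter probes, Dnajb1 and Hspa8 were the pair least alike over the arrays (r = 0.095).

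Bag3, the co-chaperone that links Hsp70 to autophagy of damaged proteins, had the narrowest range, 1.39-fold. It read 2.86 and 2.74 in untreated lung, 2.94 and 2.64 in Irradiation and 2.34 and 2.30 and 2.39 and 2.35 in the irradiated combinations, the lowest 4 arrays. The remaining 8 groups lay between 2.47 and 2.80. A second, dimmer Bag3 probe differed from Irradiation in the opposite direction, by 0.44 to 0.66 in the 4 irradiated groups with Imatinib or Su. That probe read -2.53 on the first Irradiation array and -1.55 on the second, against -1.59 and -1.60 in Irradiation+Su. The rest of these groups read -1.51 to -1.26, so the size of its differences rests largely on the first Irradiation array. Bag3 thus has no direction here that both probes share.

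**Figure D2:**
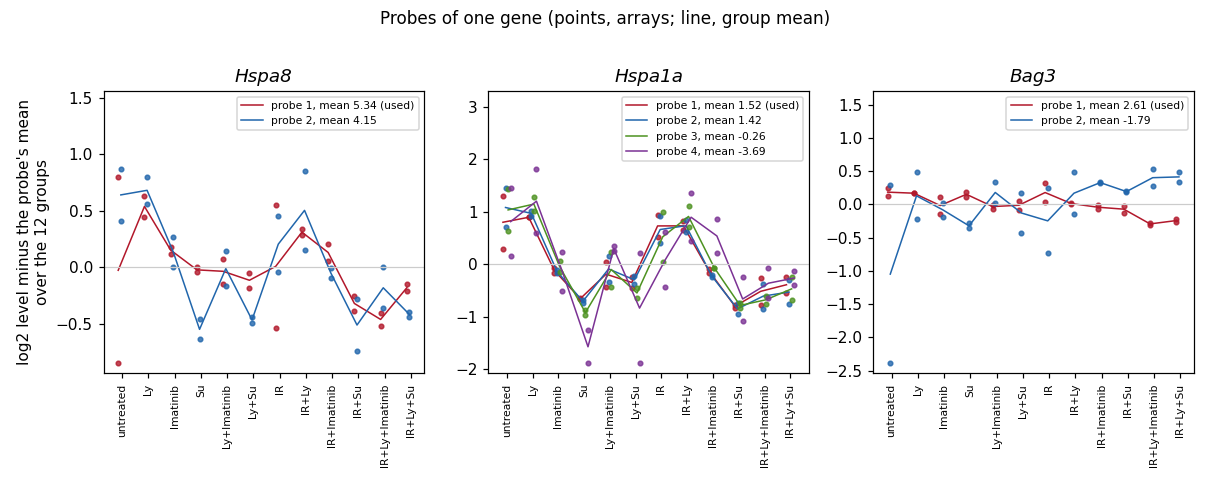
Log2 level minus the probe's own mean over the 12 groups (y axis) for each probe of Hspa8, Hspa1a and Bag3, by group (x axis; IR, irradiation); points are arrays, lines join group means and the brightest probe is the one used. The 4 Hspa1a probes are low together with Su and in Irradiation+Su, the second Hspa8 probe is low with Su where the first is not, and the second Bag3 probe is far below its mean on 1 untreated array.

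Hspd1 and Hspe1 form the chaperonin of the mitochondrial matrix, Hspd1 its barrel and Hspe1 its lid. Hspd1 read 4.45 and 4.55 in untreated lung, 4.39 and 4.35 with Ly, 4.06 and 4.18 with Imatinib, 4.05 and 4.02 with Su, 3.97 and 4.09 with Ly+Imatinib and 4.005 and 3.996 with Ly+Su. Irradiated lung read 4.59 and 4.28 without drug, 4.30 and 4.03 with Ly, 3.84 and 3.89 with Imatinib, 3.64 and 3.57 with Su, 3.90 and 3.84 with Ly+Imatinib and 3.84 and 3.86 with Ly+Su. The range was 1.86-fold and the Irradiation+Su arrays were again the lowest. A second, dimmer Hspd1 probe gave -0.86 for Irradiation+Su against Irradiation, but its lowest group was Ly+Su and its irradiation average over the arms was 0.12, of the opposite sign to that of the brighter probe. Hspe1, which shares the promoter, read 2.60 and 2.52 in untreated lung, 2.62 and 2.46 with Ly, 2.39 and 2.22 with Imatinib, 2.27 and 2.26 with Su, 1.95 and 1.97 with Ly+Imatinib and 2.01 and 2.12 with Ly+Su. In Irradiation it read 3.29 and 2.54, and then 2.46 and 2.15 with Ly, 1.96 and 2.15 with Imatinib, 1.84 and 1.77 with Su, 2.01 and 1.95 with Ly+Imatinib and 1.88 and 2.03 with Ly+Su. The first Irradiation array was the highest of all 24 for Hspe1. Between Hspd1 and Hspe1 r was 0.89 over the 24 arrays.

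Most neighbours in the order of the 12 group means could not be separated. The gap to the next group was within the pooled replicate SD in 6 of 11 steps for Hsph1, 10 for Hspa1a, 11 for Hspa8, 5 for Hsp90aa1, 8 for Hspd1 and for Hspe1, 10 for Dnajb1 and 9 for Bag3. The ends of the order lay farther apart. At the low end, Irradiation+Su had the lowest mean for Hsph1, Hspa1a, Hspb1, Hspe1, Hsp90aa1 and Hspd1; at the high end stood untreated, Ly or Irradiation for all 9 genes.

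The first question the design poses is what the drugs did to irradiated lung. Set against Irradiation, Irradiation+Su was lower by 3.16-fold for Hsph1 (-1.66 ± 0.20, log2 difference ± SE, 2 arrays a group), 2.89-fold for Hspa1a (-1.53 ± 0.27), 2.25-fold for Hspb1 (-1.17 ± 0.11) and 2.15-fold for Hspe1 (-1.11 ± 0.18). Hsp90aa1, Hspd1 and Dnajb1 differed by -0.84, -0.83 and -0.81, Hspa8 by -0.33 ± 0.39 and Bag3 by -0.25 ± 0.11. The Hspa8 difference was -0.87 without the first and 0.22 without the second Irradiation array. In the limma fit over all genes, 7 of the 9 genes were called lower, beside 15.8% of all genes called lower in that comparison. None was called higher in any of the 21 comparisons. The arrays of Irradiation+Su and Irradiation overlapped for Hspa8 alone. Leaving out the first Irradiation array gave 7 called, beside 4.61% of all genes, and brought the difference of Hspe1 to -0.73.

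In Irradiation+Imatinib the differences from Irradiation were smaller for most genes. Hsph1 differed by -0.66 ± 0.20, Hspa1a by -0.86 ± 0.27, Hspb1 by -0.60 ± 0.11, Hspe1 by -0.86 ± 0.18 and Dnajb1 by -0.88 ± 0.16, with 7 of 9 called lower beside 6.04% of all genes. Without the first Irradiation array 1 of the 9 was called lower, beside 0.299% of all genes. The differences were then -0.86 for Hsph1, -1.08 for Hspa1a and -0.62 for Hspb1, no smaller than with it, and -0.49 for Hspe1. Irradiation+Ly+Imatinib gave -1.16 ± 0.20 for Hsph1, -1.25 ± 0.27 for Hspa1a and -0.86 ± 0.11 for Hspb1, with 8 called lower beside 8.34% of all genes. Irradiation+Ly+Su gave -1.18 ± 0.20, -1.12 ± 0.27 and -1.03 ± 0.11 for these genes, with 8 called lower beside 12.7%. Leaving out the first Irradiation array left 5 and 6 called in these combinations, beside 2.11% and 3.07% of all genes, and leaving out the second Irradiation+Ly+Su array left 5 in the latter. Fitted by limma on the 4 arrays of their 2 groups alone, these comparisons called 0 of all genes, and at an unadjusted p under 0.05 they had 7 of the 9 genes lower with Su, 2 with Imatinib, 5 with Ly+Imatinib and 6 with Ly+Su, beside 9.27%, 2.47%, 2.99% and 6.37% of all genes. The 4 comparisons share the Irradiation arrays, so they are not independent of each other.

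Ly was the arm with the smallest differences in most of these genes. Irradiation+Ly differed from Irradiation, on the same slide, by -0.04 ± 0.20 for Hsph1, 0.00 ± 0.27 for Hspa1a, -0.21 ± 0.11 for Hspb1 and -0.60 ± 0.18 for Hspe1, with 0 of 9 called beside 0.289% of all genes called lower; at an unadjusted p under 0.05, 4 of the 9 and 13.2% of all genes were lower. Without the first Irradiation array the difference of Hspe1 was -0.23 and 0 were called, beside 0.103% of all genes. Without the second Irradiation array, which leaves the outlying first one alone, Hsph1 and Hspa1a turned to 0.16 and 0.22, and the difference of Hspe1 was -0.98. In unirradiated lung, again on 1 slide, Ly differed from untreated lung by 0.31 ± 0.20 for Hsph1, 0.09 ± 0.27 for Hspa1a, 0.10 ± 0.11 for Hspb1, -0.15 ± 0.10 for Hsp90aa1 and 0.56 ± 0.39 for Hspa8. Of the 9, 0 were called, beside 0% of all genes called lower and 0.0049% called in either direction. At an unadjusted p under 0.05, 0 of the 9 and 5.68% of all genes differed in either direction. Leaving out the first or the second untreated array gave -0.074 or 0.69 for Hsph1, -0.41 or 0.60 for Hspa1a and -0.26 or 1.39 for Hspa8, so these have no settled sign.

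**Figure D3:**
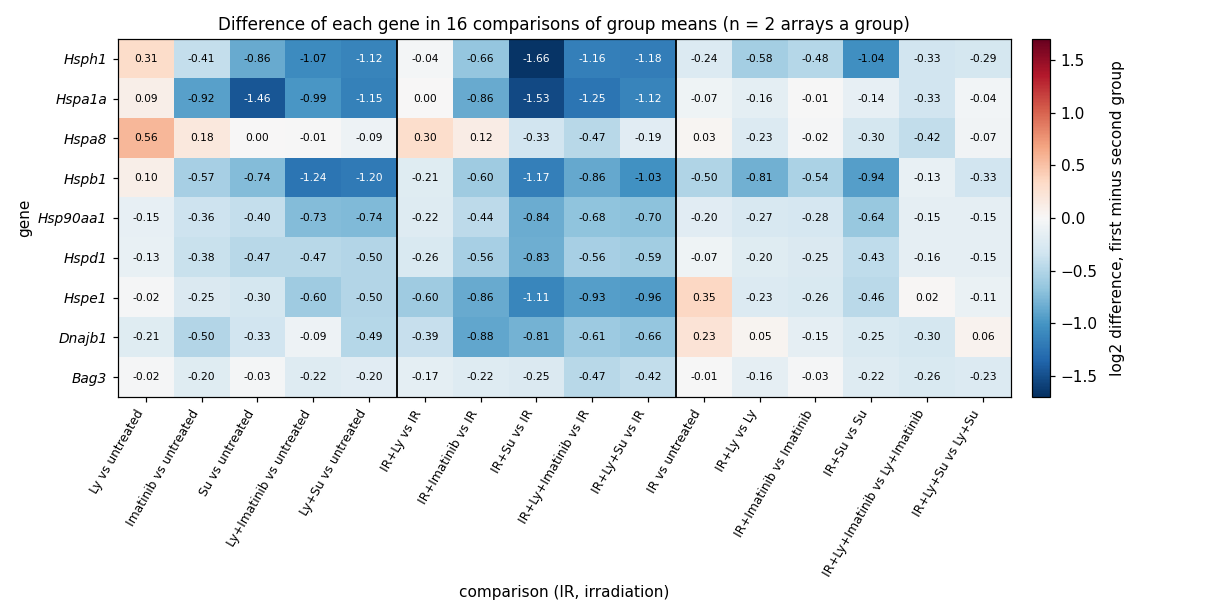
Log2 difference, first minus second group mean of 2 arrays, printed and coloured for the 9 measured genes (rows) in 16 comparisons (columns): drug against untreated, drug against irradiation alone, and irradiated against unirradiated within an arm (IR, irradiation). Su against irradiation alone holds the lowest value, -1.66 for Hsph1. Where Su or a combination is set against untreated lung or irradiation alone, Hspa8 and Bag3 stay nearer 0 than Hsph1 and Hspb1. For irradiation in the Ly+Imatinib arm Hspa8 lies farther from 0 than both.

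Imatinib and Su also went with lower values in lung that was never irradiated. Su differed from untreated lung by -0.86 ± 0.20 for Hsph1, -1.46 ± 0.27 for Hspa1a, -0.74 ± 0.11 for Hspb1 and -0.47 ± 0.12 for Hspd1, with 5 of 9 called lower beside 1.85% of all genes. That count rests on few arrays, being 1 without the second untreated array and 0 without the first Su array, and it is 0 with normexp background correction, under which Hsp90aa1 changes sign. Imatinib differed by -0.41 ± 0.20 for Hsph1, -0.92 ± 0.27 for Hspa1a and -0.57 ± 0.11 for Hspb1, with 1 called beside 0.284% and 0 without the second untreated array. Ly+Imatinib gave -1.24 ± 0.11 for Hspb1, -1.07 ± 0.20 for Hsph1 and -0.73 ± 0.10 for Hsp90aa1, with 4 called beside 0.691% and 2 without the second untreated array. Ly+Su gave -1.20 ± 0.11, -1.12 ± 0.20 and -0.74 ± 0.10, with 3 called beside 0.328%. That count was lower without the second untreated array. It was higher without the first Irradiation array, which enters the shared estimate of the spread. For Hspb1 and Hsp90aa1 the calls in both combinations stood whichever single array was left out. The second untreated array was the higher one for Hsph1, Hspa1a and Hspa8: without it the Imatinib difference was -0.026 for Hsph1 and -0.41 for Hspa1a, the Su difference was -0.48 for Hsph1 and -0.95 for Hspa1a, and that of Hsph1 -0.69 with Ly+Imatinib and -0.74 with Ly+Su. On the arrays of the 2 groups alone none of the 9 was called with Su, Imatinib, Ly+Imatinib or Ly+Su, against 6, 4, 5 and 6 at an unadjusted p under 0.05, where 12.5%, 7.15%, 6.6% and 3.65% of all genes were lower.

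Irradiated lung was also set against unirradiated lung, as an average that takes in the drug arms and within each arm. The median difference of the 9 genes was -0.17 in that average and -0.07 in the arm without drug. Averaged over the 6 arms, irradiated lung was lower for Hspb1 (-0.54 ± 0.05), Hsph1 (-0.49 ± 0.08), Hsp90aa1 (-0.28 ± 0.04), Hspd1 (-0.21 ± 0.05) and Bag3 (-0.15 ± 0.05), the 5 of 9 called, beside 16.8% of all genes called lower. Hspa1a (-0.13 ± 0.11), Hspa8 (-0.17 ± 0.16), Hspe1 (-0.11 ± 0.07) and Dnajb1 (-0.06 ± 0.06) were within 2 SE of 0. With the slide as a random block, which this average allows when fitted as 2 means, none of the 9 was called. The share of all genes called in that fit is not given here. By arm, Hspb1 differed by -0.50 without drug, -0.81 with Ly, -0.54 with Imatinib, -0.94 with Su, -0.13 with Ly+Imatinib and -0.33 with Ly+Su, each ± 0.11. Hsph1 differed by -0.24, -0.58, -0.48, -1.04, -0.33 and -0.29 in the same order, each ± 0.20; the first of these was -0.62 without the first untreated array and turned to 0.15 without the second. The counts called lower were 1 without drug beside 6.89% of all genes, 1 with Ly beside 0.0196%, 1 with Imatinib beside 0.456%, 4 with Su beside 6.11%, 0 with Ly+Imatinib beside 1.25% and 0 with Ly+Su beside 0.735%. Each count of 1 became 0 when 1 array was left out, among them the second untreated array, the first Ly array and the first Imatinib array, and that of 4 became 2 without the first Su array. The interaction F test asks whether the irradiation difference varies among the arms. Counted as a description, since these levels chose the genes, it called none of the 9, beside 1.07% of all genes. That count was higher without the second Irradiation array, a fit that leaves 1 array in its group.

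Su and Imatinib could be compared on the same slide in 4 settings. In irradiated lung Irradiation+Su read lower than Irradiation+Imatinib by -1.01 ± 0.20 for Hsph1, -0.67 ± 0.27 for Hspa1a, -0.56 ± 0.11 for Hspb1 and -0.40 ± 0.10 for Hsp90aa1, with no overlap between the arrays of any of these. None of the 9 was called there, beside 0.0784% of all genes called lower (5 of the 9 and 6.51% of all genes at an unadjusted p under 0.05). That count was higher without the first Irradiation+Imatinib array. In unirradiated lung the differences were -0.45 ± 0.20 for Hsph1, -0.54 ± 0.27 for Hspa1a and -0.17 ± 0.11 for Hspb1. With Ly added, Hsph1 differed by -0.05 ± 0.20 in unirradiated and -0.02 ± 0.20 in irradiated lung, and Hspb1 by 0.04 ± 0.11 and -0.16 ± 0.11. None of the 9 was called in these 3 settings, beside 0.186%, 0.098% and 0% of all genes called lower (1, 1 and 0 of the 9 at an unadjusted p under 0.05, where 4.37%, 3.08% and 2.32% of all genes were lower).

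Bright probes as a class shifted too. Over the 4719 genes at least as bright on average as the dimmest of the 9, the median difference of Irradiation+Su from Irradiation was -0.27, against -0.84 for the 9 genes and -0.07 for all genes. In the same comparison for Irradiation+Imatinib the medians were -0.60 for the 9 genes and -0.22 for bright genes, for Irradiation+Ly+Imatinib -0.68 and -0.23, and for Irradiation+Ly+Su -0.70 and -0.24. In unirradiated lung the medians of bright genes were -0.06 with Imatinib, 0.02 with Su, -0.06 with Ly+Imatinib and -0.04 with Ly+Su, where the 9 genes had medians of -0.38, -0.40, -0.60 and -0.50. Quantile normalization drew the medians of the 9 genes closer to 0, to -0.59 in Irradiation+Su and -0.36 in Irradiation+Imatinib, without a change of sign in the 8 comparisons of a group given Imatinib or Su with its drug-free control. The 9 genes had a median below that of bright genes in 19 of the 21 comparisons, in 18 with quantile normalization and in 18 with normexp. The calls depended on the scaling: with quantile normalization 2 of the 9 were called lower in Irradiation+Imatinib and 5 in each irradiated combination, and with normexp 0 in Irradiation+Imatinib and Irradiation+Ly+Imatinib and 1 in Irradiation+Ly+Su.

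Other heat-inducible genes were followed as a list of 19, made of co-chaperones, J-proteins and small heat shock proteins that are no members. In Irradiation+Su 11 of the 19 fell against Irradiation, beside 15.8% of all genes, and none rose, with a median of -0.56. They included Dnaja1, a J-protein of Hsp70 (-1.61 ± 0.20, adjusted p = 0.000458), Chordc1, an Hsp90 co-chaperone (-1.30 ± 0.22, adjusted p = 0.00203), Hspa4l, a relative of Hsph1 (-1.27 ± 0.11, adjusted p = 6.03e-05), and Cacybp (-1.11 ± 0.17, adjusted p = 0.00152). In Irradiation+Imatinib 7 fell (median -0.22) beside 6.04% of all genes, and in Irradiation+Ly+Imatinib 7 (median -0.28) beside 8.34%. In Irradiation+Ly+Su 8 fell (median -0.35) beside 12.7%. In Irradiation+Ly 0 fell by limma beside 0.289% (4 at an unadjusted p under 0.05, beside 13.2% of all genes). None was higher in any of these groups. Dnaja1 fell in all 4 irradiated groups with Imatinib or Su, by -1.21 in Irradiation+Imatinib, -1.12 in Irradiation+Ly+Imatinib and -1.33 in Irradiation+Ly+Su. It read 4.70 on the first Irradiation array and 3.97 on the second, so its differences from the second array alone are smaller. All arrays of the 4 groups lay below both. Dnajb6 fell in Irradiation+Ly+Imatinib (-1.29 ± 0.42, adjusted p = 0.0469), but by -0.25 and uncalled when the first array of that group was left out. Cacybp lost its call with Imatinib and with Ly+Imatinib without the first Irradiation array, and Chordc1 then differed by -0.81 with Su. Without that array 9, 3, 6 and 8 of the 19 fell in the groups with Su, Imatinib, Ly+Imatinib and Ly+Su. Without the second Irradiation+Su array 7 fell in Irradiation+Su, and without the first Irradiation+Ly+Su array 5 fell in Irradiation+Ly+Su.

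The list was also read in unirradiated lung. With Ly+Imatinib and with Ly+Su 5 of the 19 fell, beside 0.691% and 0.328% of all genes, and with Su 3, beside 1.85%. With Imatinib or Ly none fell by limma, beside 0.284% and 0% (8 and 0 at an unadjusted p under 0.05, beside 6.28% and 2.73% of all genes). Whether these counts differ from those in irradiated lung was not tested, and without the first Irradiation array, which enters the shared spread, they were 6, 7, 8, 2 and 0 with Ly+Imatinib, Ly+Su, Su, Imatinib and Ly. Stip1, the adaptor that joins Hsp70 to Hsp90, fell by -1.06 ± 0.19 with Ly+Su (adjusted p = 0.0199), -0.92 ± 0.19 with Ly+Imatinib (adjusted p = 0.0243) and -0.81 ± 0.19 with Su (adjusted p = 0.0374). Hspb8, a small heat shock protein that works with Bag3, fell by -0.76, -0.56 and -0.63 in these groups, and Hsp90ab1, the constitutive Hsp90, by -0.73 and -0.70 in the combinations. Hspa4l fell in all 3, by -0.83, -0.92 and -0.46. Without the second untreated array 1, 1 and 0 of the 19 fell with Ly+Imatinib, Ly+Su and Su, and Hspa4l in the combinations was the call that stood whichever array of these groups was left out.  Stip1 (-0.68 ± 0.19), Hspb8 (-0.58 ± 0.13) and Hsp90ab1 (-0.55 ± 0.15) were the 3 of the list that fell in Irradiation against untreated lung, beside 6.89% of all genes. That count was lower without the second untreated or the first Irradiation array, and higher without the second Irradiation array. Averaged over the arms, 7 of the 19 were lower in irradiated lung by limma, beside 16.8% of all genes, with Hspa4l at -0.55 ± 0.05 (adjusted p = 2.83e-06).

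**Figure D4:**
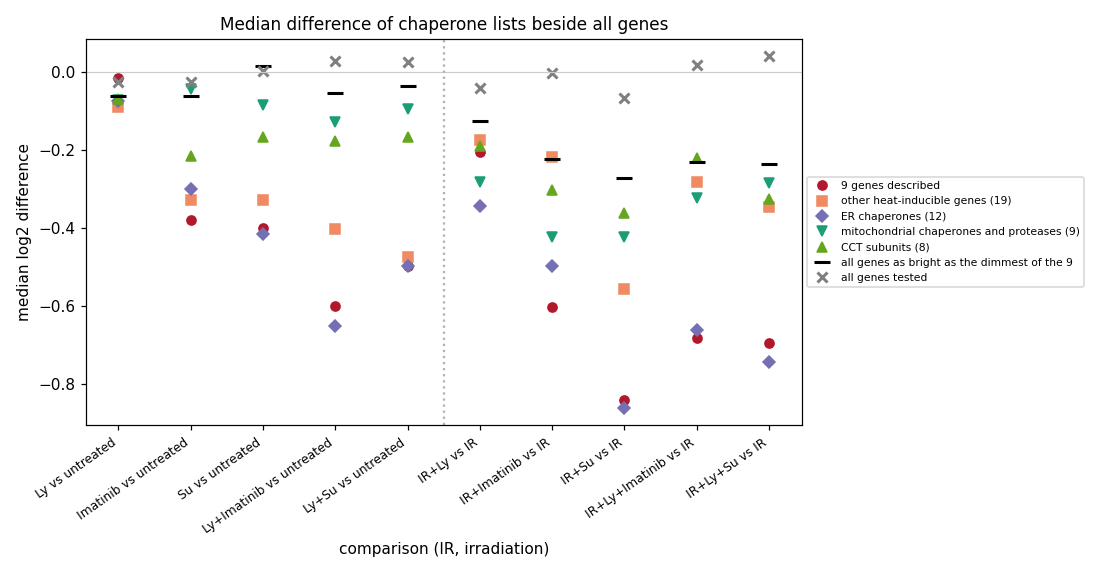
Median log2 difference (y axis) of the 9 genes, of 4 other chaperone lists, of genes at least as bright as the dimmest of the 9 and of all genes tested, in 10 comparisons of drug groups with their drug-free control (x axis; IR, irradiation; ER, endoplasmic reticulum; CCT, cytosolic chaperonin). The 9 genes and the ER chaperones lie lowest in Irradiation+Su, at -0.84 and -0.86, where all genes have a median of -0.07 and bright genes of -0.27.

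Chaperones of other compartments were read beside these. Against Irradiation, 15.8% of all genes were called lower in Irradiation+Su and 12.7% in Irradiation+Ly+Su. The share was 8.34% in Irradiation+Ly+Imatinib and 6.04% in Irradiation+Imatinib. Of 12 endoplasmic reticulum chaperones, 11 fell in Irradiation+Su (median -0.86), 11 in Irradiation+Ly+Su (-0.74), 10 in Irradiation+Ly+Imatinib and 7 in Irradiation+Imatinib; without the first Irradiation array the counts were 9, 9, 5 and 2. Hspa5, the Hsp70 of the endoplasmic reticulum, fell by -1.16 ± 0.11 in Irradiation+Su (adjusted p = 0.000107), and Manf, a secreted factor of the unfolded protein response, by -1.57 ± 0.14 (adjusted p = 6.03e-05). Calr, a lectin chaperone, and Sdf2l1, a partner of Hspa5, fell by -1.18 and -1.18 there. Of the 8 subunits of the cytosolic chaperonin, 4 fell in Irradiation+Su (median -0.36), 4 in Irradiation+Ly+Su, 1 in Irradiation+Imatinib and 0 in Irradiation+Ly+Imatinib by limma (3 at an unadjusted p under 0.05, beside 16.8% of all genes). Without the first Irradiation array none of the 8 fell in any of these groups, and under quantile normalization none fell in Irradiation+Su and Cct2 changed sign. Of 9 other mitochondrial chaperones and proteases, 6 fell in Irradiation+Su and 5, 4 and 3 in the groups with Imatinib, Ly+Imatinib and Ly+Su, and without that array 1, 0, 1 and 1. Among 20 constitutive cytosolic chaperones and co-chaperones 5 fell in Irradiation+Su, beside 15.8% of all genes, and fewer without that array. Their median was -0.22, beside -0.27 for bright genes. The Su calls of Hspa5, Manf, Calr and Sdf2l1 stood whichever array of the 2 groups was left out.

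RNA of Hsf1, the factor known to drive these genes, was higher in 3 irradiated groups with Imatinib or Su, and no drug comparison of unirradiated lung was called for it. It was higher than in Irradiation by 0.65 ± 0.22 with Su (adjusted p = 0.0433), 0.86 ± 0.22 with Imatinib (adjusted p = 0.0261) and 1.12 ± 0.22 with Ly+Imatinib (adjusted p = 0.00625), and its difference with Ly+Su was 0.59 ± 0.22 (adjusted p = 0.0583). In unirradiated lung it differed by -0.48 ± 0.22 with Su (adjusted p = 0.281, no overlap of the arrays), -0.44 with Ly+Su, -0.18 with Imatinib and 0.02 with Ly+Imatinib. Averaged over the arms it was higher in irradiated lung by 1.01 ± 0.09 (adjusted p = 4.53e-06). By arm that difference was 0.29 without drug and 0.32 with Ly, neither called, and 1.33, 1.41, 1.39 and 1.32 with Imatinib, Su, Ly+Imatinib and Ly+Su, all called; the interaction among the arms was not called (adjusted p = 0.102). Hsf2 was well above background on 4 of the 24 arrays, so that no difference is given for it. Hsbp1, which binds Hsf1 and dampens it, was by limma higher in Irradiation than in untreated lung, by 0.60 ± 0.17 (adjusted p = 0.0345). Whether that call stands with single arrays left out is not given here. Against Irradiation it fell by -0.72 ± 0.17 in Irradiation+Su (adjusted p = 0.00998) and by -0.59 and -0.66 with Imatinib and Ly+Su. Against untreated lung it was called in no unirradiated drug group, with a difference of 0.29 ± 0.17 for Su. The calls of Hsf1 with Su and Imatinib and those of Hsbp1 in drug groups against Irradiation were lost without the first Irradiation array. The activity of Hsf1 is set on the protein and was not measured.

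Cirbp, a cold-inducible RNA-binding protein, was higher where many chaperones were lower. It rose by 1.22 ± 0.24 with Su (adjusted p = 0.0178), 0.96 ± 0.24 with Ly+Imatinib (adjusted p = 0.0494) and 1.38 ± 0.24 with Ly+Su (adjusted p = 0.0176) in unirradiated lung. In irradiated lung it rose by 1.58 ± 0.24 with Su (adjusted p = 0.0013), and by 0.91 and 1.04 in the combinations. Rbm3, the other cold-inducible protein read, differed by -0.79 ± 0.34 with Su and 0.13 ± 0.34 in Irradiation+Su, neither called. It was higher by 0.97 ± 0.34 in Irradiation+Ly+Su (adjusted p = 0.0469), a call lost without the first Irradiation array or either array of that group, and differed by 0.92, uncalled, in Irradiation+Ly+Imatinib. All calls of Cirbp but that in Irradiation+Su were lost without 1 or another array of the 2 groups.

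The genes most like the 9 were found by their Pearson r over the 24 arrays with the mean standardised value of the 9 genes. The 10 closest were Ahsa1 (0.963), the activator of the Hsp90 ATPase, Creld2 (0.963) and Hspa5 (0.944) of the endoplasmic reticulum, Hspa4l (0.942), P4ha1 (0.921), Stx18 (0.918), Rnpep (0.912), Mrps6 (0.908), Carhsp1 (0.905) and Clip1 (0.904). Among the most opposite genes were Cc2d2a (-0.930), Med14 (-0.892), 4930577N17Rik (-0.886) and Eml4 (-0.883). As a description, with no test because they were picked for this pattern, Ahsa1 differed from Irradiation by -0.75 ± 0.09 in Irradiation+Su and Creld2 by -0.86 ± 0.09. Hspa5 and Hspa4l were named above from their lists, and their adjusted p values there are no test of this likeness. The correlations carry no p, since arrays share groups and slides.

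**Figure D5:**
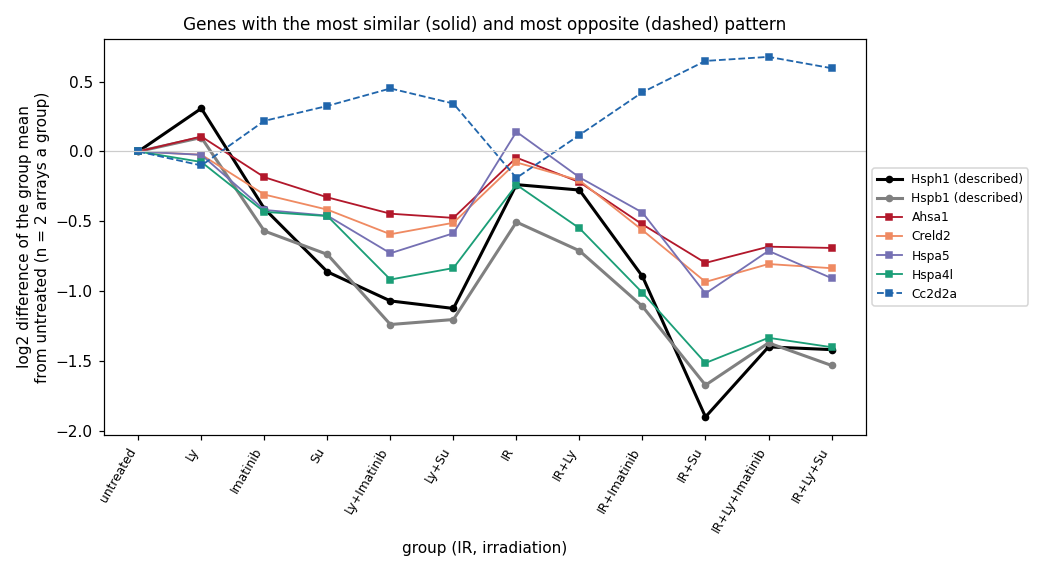
Difference of each group mean from that of untreated lung (y axis, log2, 2 arrays a group) for Hsph1 and Hspb1, for the 4 genes most like the 9 chaperones (solid lines) and for the most opposite gene, Cc2d2a (dashed), over the 12 groups (x axis; IR, irradiation). Ahsa1, Creld2, Hspa5 and Hspa4l are lowest in Irradiation+Su, as Hsph1 and Hspb1 are.

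Cell type markers moved beside these results. Against Irradiation, 15.8% of all genes were called lower and 10.7% higher in Irradiation+Su, and 12.7% and 15.8% in Irradiation+Ly+Su. The shares were 8.34% and 11.1% in Irradiation+Ly+Imatinib, 6.04% and 7.9% in Irradiation+Imatinib and 0.289% and 0.598% in Irradiation+Ly. Of 5 macrophage markers, 4 fell against Irradiation in Irradiation+Su and in Irradiation+Ly+Su and 1 each in Irradiation+Imatinib and Irradiation+Ly+Imatinib; their summed level was 30.4 to 48.7 in Irradiation and 15.2 to 27.8 in these 4 groups, in multiples of the 75th percentile signal. Of 5 endothelial markers, 3 rose in each of these 4 groups, with summed levels of 84.2 to 114 in Irradiation and 105 to 123 in the 4 groups. All 4 B cell markers rose in Irradiation+Su and Irradiation+Ly+Su, 2 in Irradiation+Ly+Imatinib and 1 each in Irradiation+Imatinib and Irradiation+Ly. Without the first Irradiation array none of the macrophage markers fell in these 4 groups, endothelial markers rose only in Irradiation+Ly+Imatinib (2) and Irradiation+Ly+Su (1), and 3, 4 and 1 B cell markers rose in Irradiation+Su, Irradiation+Ly+Su and Irradiation+Ly+Imatinib. In unirradiated lung the summed macrophage level was 14.9 to 18.0 in untreated lung and 14.2 to 14.6 with Su, where Hsph1 and Hspa1a were lower too. No macrophage, endothelial or B cell marker of these lists was below background on every array. Some alveolar markers fell against Irradiation too. By limma Aqp5 was lower in Irradiation+Su (-0.65, adjusted p = 0.00209), Irradiation+Ly+Imatinib (-0.43) and Irradiation+Ly+Su (-0.40). Lamp3 was lower in Irradiation+Su (-0.54, adjusted p = 0.01) and Irradiation+Imatinib (-0.44). Its differences in the irradiated combinations are not given here, so no contrast with those groups is drawn. The values of Aqp5 and Lamp3 without the first Irradiation array are not given either. Ager, Hopx, Pdpn, Sftpc, Sftpb, Sftpa1 and Abca3 were not called in Irradiation+Su or Irradiation+Imatinib. Other marker lists are not described here. The part of these cell types in the chaperone values was not tested.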

How the data were processed

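Total RNA of 24 mouse lung samples was labelled with Cy3 and hybridised to single-colour Agilent arrays, per the labels. The deposited intensity values were made with Agilent Feature Extraction 9.1.3.1, per the file headers: background-subtracted and detrended, with no scaling between arrays. No genome build is given in the sources used here. Of 43379 spots that are not controls, those of a probe were averaged, 619 of 41174 probes marked unusable were dropped and 40555 kept. The brightest probe stood for a gene, and genes well above background on both arrays of at least 1 group were tested (20409).

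Deposited intensities were divided by the 75th percentile of their array, put on the log2 scale and fitted (lmFit and eBayes of limma 3.58.1 in R 4.3.3, files read with version 1.17.8 of data.table), with 1 mean for each of 12 groups (12 residual and 2.08 prior degrees of freedom). P values were two-sided, adjusted by Benjamini-Hochberg over all genes, with 0.05 as the threshold. They measure the spread between 2 biological replicates per group, and the number of arrays limits the precision. The deposited table of the series holds the same intensity up to a constant (ratios of 0.995 to 1.005). For 1 Irradiation+Su sample the replicate number differs between title (2) and source name (1), and the number in the title stands.

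The chaperones, gene lists and comparisons were chosen with earlier results of these data known. The text names every chaperone of the set; up to 4 genes of a list by size among those called; Hsf1, Hsf2, Hsp90ab1, Hspa5, Cirbp and Rbm3; the 10 most like and 5 most opposite genes, 1 of which is not reported here; and lung markers. Ahsa1 and Creld2 differences, Stip1, Hspb8 and Hsbp1 values and those of Dnajb6 follow from these lists. The fit was checked on simulated data. Alternatives were quantile normalization, normexp with an offset of 50, the deposited table, other filters, every probe tested, a replicate block, groups compared alone, a slide block and single arrays left out.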

Additional observations from a re-analysis of the deposited data

How the results depend on the processing

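The sign of the median difference of the 9 genes stayed the same in all 21 comparisons with the deposited table, with no filter on background, with the filter on all arrays and with the replicate block, in 20 with every probe tested, in 18 with quantile normalization and in 16 with normexp. Quantile normalization gave medians of -0.36 (Irradiation+Imatinib), -0.59 (Irradiation+Su), -0.48 (Irradiation+Ly+Imatinib), -0.49 (Irradiation+Ly+Su) and -0.044 (Irradiation+Ly) against Irradiation, and of -0.22 and 0.002 for irradiation in the Su and Ly+Su arms, the last with its sign turned. Normexp, under which the median of all genes lay between -0.40 and 0.23, gave -0.97 for Irradiation+Su against Irradiation and -0.55 for it against Irradiation+Imatinib. Against untreated lung it gave -0.013 for Imatinib, -0.077 for Su, -0.72 for Ly+Imatinib, -0.28 for Ly+Su, 0.26 for Ly and 0.23 for Irradiation. It gave 0.43 for Ly+Su against Ly+Imatinib, -0.56 for irradiation in the Su arm and 0.23, with the sign turned, in the Ly+Imatinib arm, and turned Hsp90aa1 to 0.04 for Su against untreated lung. With every probe tested the medians were -0.20 for Irradiation, 0.10 for Ly and -0.54 for Su against untreated lung, and -0.11, -0.30, -0.15 and -0.014 for irradiation in the Imatinib, Su, Ly+Imatinib and Ly+Su arms; Bag3 turned to 0.14 in the irradiation average and to 0.089 and 0.12 in Irradiation+Ly+Imatinib and Irradiation+Ly+Su against Irradiation. With Irradiation 1 and Irradiation+Ly+Imatinib 1 left out together, chosen after seeing the data, the median of Irradiation+Imatinib against Irradiation was -0.49. With single arrays left out, the medians against Irradiation ranged from -0.711 to -0.486 (Irradiation+Imatinib), -1.07 to -0.77 (Irradiation+Su), -0.85 to -0.61 (Irradiation+Ly+Imatinib) and -0.90 to -0.62 (Irradiation+Ly+Su). Against untreated lung they ranged from -0.126 to 0.062 (Ly), -0.62 to -0.32 (Imatinib), -0.51 to -0.34 (Su), -0.71 to -0.48 (Ly+Imatinib), -0.73 to -0.50 (Ly+Su) and -0.175 to 0.146 (Irradiation), and for irradiation from -0.33 to -0.18 in the Ly arm and -0.28 to -0.12 in the Ly+Imatinib arm. The interaction test called 0 of the 9, a count that was higher without the second Irradiation array. The replicate numbers did not pair the arrays: the deviations of same-numbered arrays correlated at over 0.1 in 20 of 66 group pairs. The replicate block left every median as it was (-0.84 for Irradiation+Su against Irradiation) and changed 1 count of the 9, from 1 to 0 for Imatinib against untreated lung, a call also lost with quantile normalization, normexp, the deposited table, both filters and every probe tested. The slide block could be fitted only to the irradiation average, since each group lay on 1 slide. With each comparison fitted on its own 4 arrays, 0 of the 9 were called in 19 of 20 comparisons (0 to 7 at an unadjusted p under 0.05 by limma, beside 1.67% to 12.5% of all genes). For irradiation in the Su arm 5 were called, where 6252 of the 20409 genes tested were called too. There, at an unadjusted p under 0.05 by limma, 7 of the 9 and 27.1% of all genes were lower. With normexp the counts were 1 for the irradiation average, 0 in its 4 arms with a call and 0 in every drug group against untreated lung. Quantile normalization gave 3 for Su against untreated lung and no filter on background gave 2. With both arrays left out, 2 were called in Irradiation+Imatinib, 4 in Irradiation+Ly+Imatinib and 6 for Ly+Su against untreated lung. The causes were not tested, and 2 arrays a group limit the precision of every value.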
